A study of Mus musculus with 18 samples.

Results

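The levels of 17167 genes were compared between short and long sequencing reads of the same cDNA, taken from LK cells of 6 mice. LK cells are bone-marrow cells without lineage markers (Lin-) and with the receptor cKit (cKit+), a fraction that holds haematopoietic stem and progenitor cells. Mice 1, 3 and 5 were 8 weeks old and mice 2, 4 and 6 were 72 weeks old. All were female C57BL/6 mice, with no treatment named in the labels. Each mouse gave 1 droplet (10x Genomics 3′) cDNA pool, which was read once on an Illumina instrument and in 2 PacBio runs, so a mouse contributed 1 short-read library and the first of its long-read runs. The first-run counts of mice 1 and 2 are labelled by age alone in the deposited table and were assigned to these mice because the other mice of each age have first runs of their own. The comparison took 12 of the 18 libraries of the series. The genes were chosen because their name occurs once in the short-read table and once in the deposited annotation, out of 17757 genes of the short-read table and 55478 gene rows of the long-read table. Counts were summed over all cells of a mouse, so fewer cells of a type and less RNA per cell cannot be told apart.

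In a droplet library, each cDNA carries a cell barcode and a unique molecular identifier (UMI) next to its poly(A) tail. Short reads sample the 3′ end of the transcript and are counted once per UMI. A long read is a circular consensus of a whole cDNA molecule, and the deposited long-read counts are reads per gene. The short-read counts hold only the 8436 cells that the authors kept. Per the study's methods, long reads were assigned to cell barcodes found in the short reads before they were mapped. Taken over all runs, the deposited long-read counts hold more reads than the authors assigned to cells. As a whole they are therefore not limited to the kept cells. How many first-run reads came from outside the kept cells is not given in the sources used here. Whether reads of the same UMI were counted once is not given either. The part of such differences in the results was not tested.

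The 6 mice gave 681 to 1919 cells each, with 7 to 20 cell barcodes per mouse that also occurred in another mouse. On matched genes a short-read library held 3574109 to 17337393 UMIs and a first-run long-read library held 269125 to 351387 reads, so the short reads were 10.2 to 64.4 times deeper. Of all first-run long reads, 32.3 to 39.8% fell in no gene, 5.92 to 11.5% fell in more than 1 gene and 3.91 to 5.21% had a low alignment quality. All 10 LK markers had counts in all 12 libraries. Markers of B and plasma cells took 0.0105 to 4.79% of UMIs and 0.0145 to 0.680% of long reads. Markers of macrophages and dendritic cells took 0.00484 to 0.159% of UMIs and 0.00346 to 0.221% of long reads. Markers of T and NK cells were at 0 or near 0, with at most 0.00136% of UMIs and 0.000341% of long reads. Each of the 6 first-run long-read libraries deviated most like the short-read library of its own mouse (correlation of deviations across genes 0.18 to 0.33, a description). In the other direction 5 of 6 short-read libraries did so, and the short reads of mouse 1 were slightly closer to the long reads of mouse 2 (0.20) than to their own (0.19). With mice 3 to 6 alone, 5112 genes differed between methods in the test described next, against 5165 with all 6. In the second, deeper run (944160 to 1798424 reads) only the libraries labelled mice 1 and 2 did so, whereas those labelled 3, 4, 5 and 6 correlated with the first-run libraries 6, 5, 4 and 3 (0.33 to 0.45), while the correlation with their own number was -0.0783 to -0.0045. Results below use the first run, and a second-run log2 difference comes from a fit that pairs that run by its labels. Both runs summed are also joined by label, so sums labelled mice 3 to 6 may hold reads of different mice.

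Levels are CPM (counts scaled to a common library total) of matched genes. The log2 difference, long minus short, comes from edgeR's quasi-likelihood test with the mouse as block, after TMM scaling, with the standard error (SE) and a Benjamini-Hochberg adjusted p. Of 9034 genes tested, 5165 (57.2%) differed between methods at an adjusted p under 0.05. Of these, 2442 (27% of those tested) were higher and 2723 (30.1%) were lower in long reads, and 2825 (31.3%) had an absolute log2 difference of at least 1. TMM sets the median gene close to 0 (-0.05). With library size alone the median gene was at 0.71, a shift of 0.76, and 5291 genes were higher (58.6%) and 1131 lower (12.5%), so that 82.4% of the calls were higher in long reads against 47.3% with TMM. Differences are therefore relative to the typical gene: a gene with more CPM in long reads can have a log2 difference near 0, and a negative difference smaller than this shift turns positive with library size alone. The low side was longer: 394 genes (4.36%) lay below a log2 difference of -4 and 59 lay above 4. Genes absent from the short-read table were not matched and could not add to the high side.

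**Figure D1:**
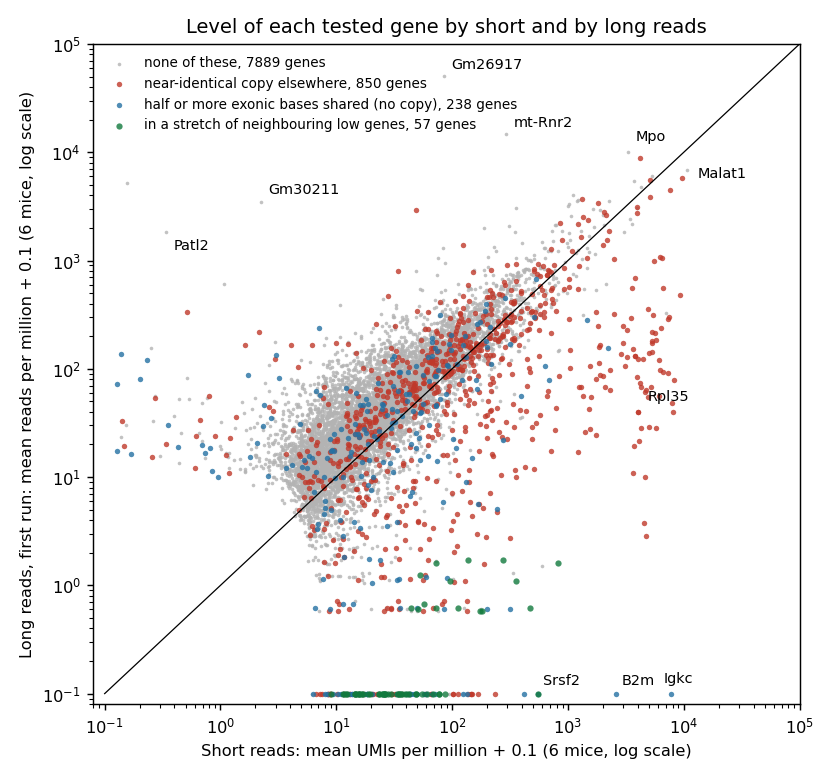
Mean level of each of the 9034 tested genes in short reads (x axis, UMIs as CPM + 0.1) and first-run long reads (y axis, reads as CPM + 0.1), both on log scales, with the line of equal CPM. The bulk of the genes runs along the line but somewhat above it, as the median log2 difference without TMM was 0.71. Some of the 850 genes with a near-identical copy (red) reach far below it. So do some of the 238 without a copy but with 50% or more of their exonic bases in another gene (blue). Of all 272 tested genes that share 50% or more, 82 lay below a log2 difference of -4 and 50 were higher in long reads. Genes in a run of low neighbours (green) lie far below the line.

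Longer transcripts were more often higher in long reads. Transcripts under 500 nt had a median log2 difference of -1.65 (234 tested, 31 higher and 160 lower), those of 500 to 1000 nt (the upper bound not included, here and below) -0.49, of 1000 to 2000 nt -0.08, of 2000 to 3000 nt 0.10, of 3000 to 4000 nt 0.13, of 4000 to 6000 nt 0.20 and those of 6000 nt or more 0.37 (407 tested, 166 higher and 69 lower). With library size alone the classes of 500 to 1000 nt and 1000 to 2000 nt turned positive (0.27 and 0.68) and the order of the classes was the same from shortest to longest. In each of the 6 mice the median of the shortest class (-2.22 to -1.19) lay below that of the longest class (0.18 to 0.54). Among genes with neither a copy nor shared exonic bases, the shortest class was at -1.09 and the longest at 0.34. Exon number followed the same order, from -0.89 for 1 exon to -0.31 for 2 to 5, 0.01 for 6 to 10, 0.14 for 11 to 20 and 0.18 for over 20 exons, where the class of 2 to 5 exons turned positive with library size alone (0.45). Among transcripts of 2000 to 3000 nt the medians by exon number stayed between 0.04 and 0.15. Among genes of 6 to 10 exons the length classes still ran from -0.12 (under 500 nt, 12 genes) and -0.21 (500 to 1000 nt) to 0.42 (6000 nt or more, 59 genes). GC content moved with the difference too: transcripts of 2000 to 3000 nt had a median of -0.70 below 40% GC and 0.33 at 55 to 60% GC.

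**Figure D2:**
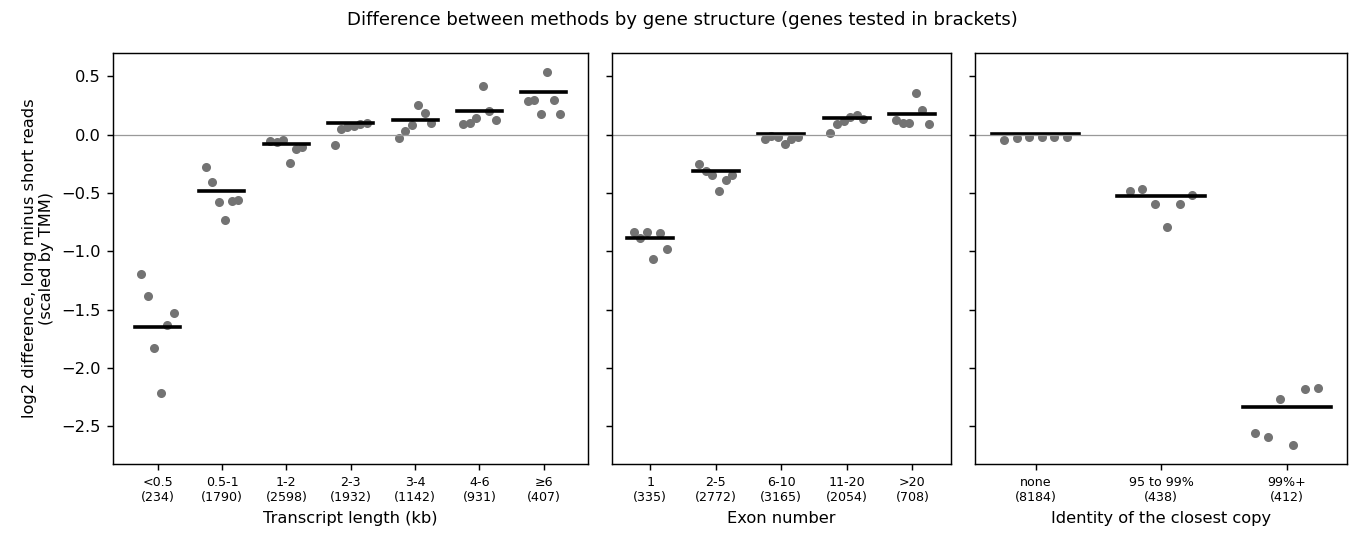
Median log2 difference, long minus short reads, by transcript length, exon number and identity of the closest copy, with the genes tested in brackets. Points are the 6 mice and bars the fitted median of the class, which runs from -1.65 in the shortest to 0.37 in the longest transcripts and falls to -2.33 for genes with a copy of 99% identity or more.

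The genes that define LK cells were mostly higher in long reads, with Kit the highest of the list. Of 10 LK markers, 7 were higher (against 27% of all genes) and 2 were lower, with a median log2 difference of 0.89. Kit, the receptor of stem cell factor by which these cells were sorted, had 43.4, 48.9, 34.3, 43.8, 56.6 and 62.7 CPM in short reads of mice 1 to 6 and 706, 780.4, 741, 1040.4, 855 and 703 CPM in long reads. The groups did not overlap, and the log2 difference was 3.32 (SE 0.13, edgeR adjusted p = 8.3e-19). Mpo, the myeloperoxidase of neutrophil granules, had 4648, 5150.0, 1909, 2712, 2938 and 2558 CPM in short and 7743, 13072, 9442, 11441, 9975 and 9038 CPM in long reads, where it was the most abundant protein-coding gene (log2 difference 0.92, SE 0.16, edgeR adjusted p = 1.2e-05). Klf1, an erythroid transcription factor, rose from 65.2 ± 8.63 to 258 ± 58.7 CPM (SD, n = 6, log2 difference 1.22). Cd34, a sialomucin of progenitor cells, rose from 227 ± 17.6 to 732 ± 119 CPM (0.93). Flt3, a receptor of lymphoid and myeloid progenitors, and Itga2b, the CD41 integrin of megakaryocytes, were lower on the scaled log2 axis (-0.51 and -0.69) although their CPM overlapped between methods and were higher in long reads in 3 of 6 mice, and both turned positive with library size alone (0.24 and 0.07) and in the second run (0.38 and 0.52).

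Transcription factors of blood cells were more often higher than lower. Of 33 tested, 14 were higher and 5 lower (against 27% and 30.1% of all genes), with a median of 0.25 on the log2 scale, and with library size alone 25 were higher and 3 lower (against 58.6% and 12.5%). Myc, a driver of growth and proliferation, had 114, 89.97, 81.3, 65.4, 83.9 and 84.2 CPM in short and 695, 899.6, 841, 1074, 1057 and 1175 CPM in long reads, without overlap (log2 difference 2.72, SE 0.14). Etv6, a repressor needed by stem cells, rose from 27.9 ± 3.20 to 184 ± 80.5 CPM, and Ldb1, the scaffold of the Gata1 and Tal1 complex, from 32.6 ± 4.67 to 170.0 ± 38.1 CPM (SD, n = 6). Gata2 differed by 0.85 and Tal1 by 0.51 on the log2 scale. At the other end Lyl1 and Hhex, both regulators of early blood cells, had no long read in any mouse. Lyl1 had 116 to 153 CPM in short reads, at least 86.3-fold more than the 3 reads that a count of 0 allows over the 6 libraries, and Hhex 77.9 to 102 CPM, at least 51.3-fold more. Lmo2, an adaptor of the same complex, had 422 ± 42.5 CPM in short and 830 ± 63.7 CPM in long reads, and the log2 difference of 0.22 did not pass the test (SE 0.11, edgeR adjusted p = 0.095). For Meis1, a homeobox factor of stem cells, the log2 difference was -0.00 (adjusted p = 0.99), which became 0.77 with library size alone.

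Of 26 cytokine and growth factor receptors, 11 were higher and 5 lower (against 27% and 30.1% of all genes), with a median log2 difference of 0.21. With library size alone 19 were higher and 3 lower (against 58.6% and 12.5%). Tgfbr2, a receptor of TGF-β, rose from 6.90 ± 0.906 to 51.6 ± 15.8 CPM (SD, n = 6, log2 difference 2.14). Ccr2, a chemokine receptor of monocytes, fell from 17.2 ± 7.26 to 9.25 ± 7.44 CPM (-1.56) and Fcer1a, the IgE receptor chain of mast cells and basophils, from 87.4 ± 70.8 to 51.2 ± 49.5 CPM (-1.52).

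**Figure D3:**
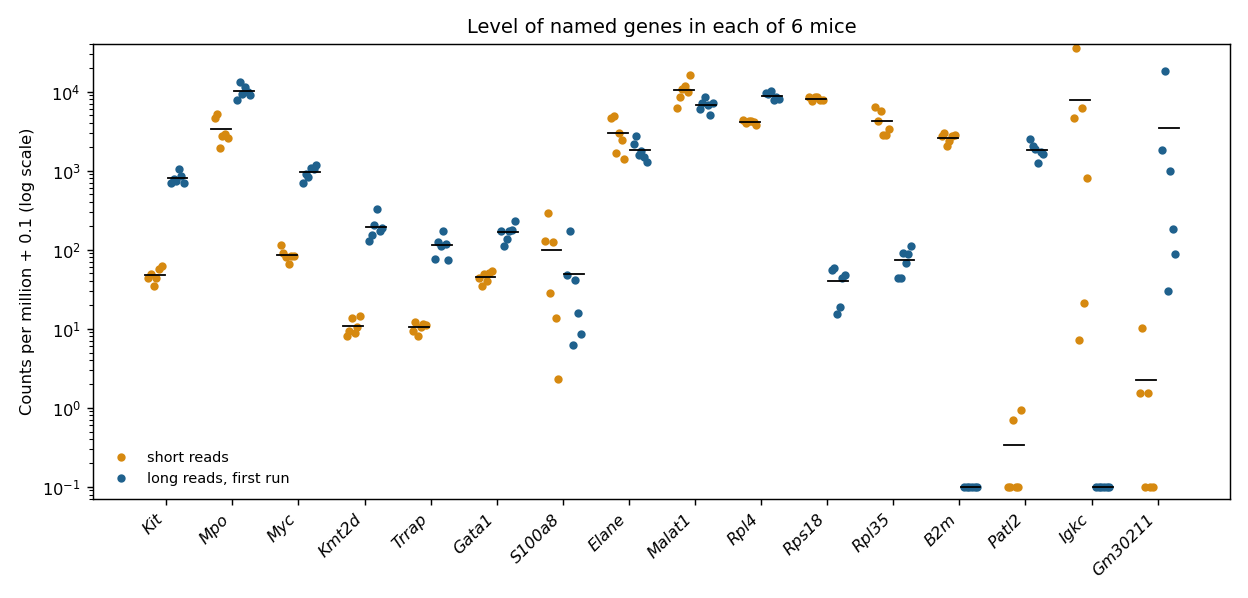
CPM + 0.1 (log scale) of 16 genes in each of the 6 mice, by short reads (orange) and first-run long reads (blue), with bars at the means. Kit, Mpo, Myc, Kmt2d, Trrap, Gata1 and Rpl4 lie higher in long reads in all 6 mice, B2m and Igkc lie at 0 in long reads, and Patl2 and Gm30211 show the reverse of them.

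Among 32 genes of very long messenger RNAs, 17 were higher and 3 lower (against 27% and 30.1% of all genes), with a median of 0.55 on the log2 scale, and with library size alone 27 were higher and 1 lower. Kmt2d, a histone methyltransferase, had 8.10 to 14.3 CPM in short and 128 to 331 CPM in long reads (log2 difference 3.43, SE 0.17), and Trrap, a scaffold of histone acetyltransferases, 7.92 to 11.9 and 74.0 to 175 CPM (2.70, SE 0.17). Cenpf, a kinetochore protein, went the other way, with 36.7 ± 4.51 CPM in short and 24.9 ± 9.30 CPM in long reads (SD, n = 6, -1.32). Of 21 genes of globins, haem synthesis and the red cell membrane, 13 were higher and 2 lower (median 0.57, against 27% and 30.1% of all genes). With library size alone 17 were higher and 2 lower (against 58.6% and 12.5%). Rhag, a membrane protein of red cells, rose from 11.1 ± 4.38 to 106 ± 40.4 CPM and Tfrc, the transferrin receptor, from 23.9 ± 9.03 to 147 ± 39.4 CPM. The 2 lower genes were the α-globins Hba-a1 and Hba-a2 (-2.34 and -2.29), which are copies of each other.

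Granule proteins ran against Mpo. Of 20 tested, 16 were lower and 1 (Mpo) was higher in long reads (against 30.1% and 27% of all genes), with a median log2 difference of -0.86. With library size alone 8 were lower and 4 higher (against 12.5% and 58.6%), and the median was -0.11. Mcpt8, a protease of basophils, had 1887, 1711, 121, 185, 758 and 268 CPM in short and 267, 354, 24.2, 44.6, 91.2 and 85.4 CPM in long reads. In each of the 6 mice the long-read value was lower, although the ranges overlapped between mice (log2 difference -3.14, SE 0.17, edgeR adjusted p = 1.2e-15). Prg3, an eosinophil granule protein, fell from 29.4 ± 23.2 to 1.55 ± 1.70 CPM (-4.79). S100a8, a calcium-binding protein of neutrophils chosen, like Gata1 and Elane in the plot by mouse, after its values were seen, ranged from 2.24 to 294 CPM in short reads and from 6.05 to 174 CPM in long reads, and was lower in long reads in 4 of 6 mice (-1.76, SE 0.22, edgeR adjusted p = 8.8e-08).

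Many genes of the respiratory chain and of translation were lower in long reads. Of 80 nuclear genes of the respiratory chain, 63 were lower and 4 higher (against 30.1% and 27% of all genes), with a median log2 difference of -1.19 (-0.43 with library size alone, with 47 lower and 18 higher). Ndufa13, a subunit of complex I, had 351 to 468 CPM in short reads and no long read, at least 265-fold more. Cox16, an assembly factor of cytochrome c oxidase, rose from 18.1 ± 5.01 to 52.2 ± 18.9 CPM (SD, n = 6, 0.78). Of 28 translation factors, 16 were lower and 3 higher (median -0.57, against 30.1% and 27% of all genes). This median turned positive with library size alone (0.19, 7 lower and 12 higher). Tpt1 and Eef1g, both tied to elongation, fell by 5.30 and 5.21 on the log2 scale, whereas Eif4g1, the scaffold of cap-dependent initiation, rose by 1.32 and Pabpc1, the poly(A)-binding protein, by 1.09. Tpt1 and Eef1g have copies of over 99% identity that held more long reads than they did, and with the copies added in both methods the log2 ratio of CPM went from -4.55 to -3.26 for Tpt1 and from -4.43 to -3.19 for Eef1g. Cell-cycle genes were near the typical gene (median 0.00, and 0.76 with library size alone), with 9 of 30 higher and 11 lower (against 27% and 30.1% of all genes). With library size alone 21 were higher and 2 lower (against 58.6% and 12.5%). Ccna2 and Tubb5 were higher (0.99 and 0.94), while Stmn1, a tubulin-binding protein, fell from 1538 ± 176 to 105.2 ± 17.2 CPM (-4.62). Of 22 actin genes 7 were higher and 8 lower (median 0.06, against 27% and 30.1% of all genes). With library size alone 14 were higher and 5 lower (median 0.83, against 58.6% and 12.5%). Cap1 was at 1.71 and Actg1 at -5.37, where the log2 ratio of CPM of Actg1 went from -4.58 to -3.16 with its copies added.

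**Figure D4:**
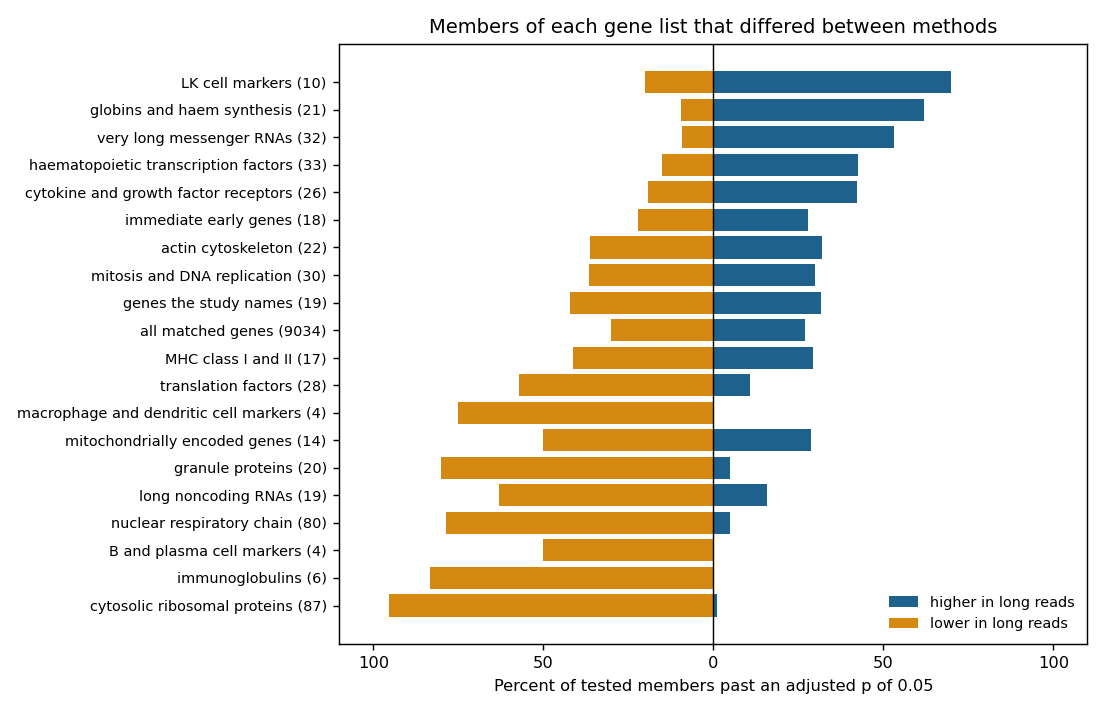
Percent of tested members of each gene list that were higher (right, blue) or lower (left, orange) in long reads at an adjusted p of 0.05, ordered by median log2 difference, with the genes tested in brackets. LK markers (7 of 10 higher) stand at the top and cytosolic ribosomal proteins (83 of 87 lower) at the bottom, with all matched genes in between.

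Ribosomal proteins, which build the cytosolic ribosome and whose genes have left many processed pseudogenes in mammalian genomes, showed the widest gap. They took 30.7 to 41.4% of UMIs and 5.14 to 8.01% of long reads, without overlap. Of 87 tested, 83 were lower and 1 higher (against 30.1% and 27% of all genes), with a median log2 difference of -5.43. Rps18 had 8535, 7632, 8476, 8609, 7715 and 7741 CPM in short and 54.8, 57.9, 15.1, 18.6, 44.0 and 48.4 CPM in long reads (-8.43, SE 0.25). Rpl23a (4696 ± 903 against 2.75 ± 2.28 CPM) and Rpl36 (4569.7 ± 713 against 3.69 ± 3.62 CPM, SD, n = 6) had 5 and 7 long reads over the 6 mice. Rpl4, the member that was higher, had 3824 to 4428 CPM in short and 7848 to 10119.6 CPM in long reads (0.34, SE 0.13, edgeR adjusted p = 0.031), while in the second run 85 members were lower and 0 higher. The 82 tested members with a near-identical copy elsewhere in the annotation had a median of -5.48, and the 5 without such a copy had a median of -0.59, with 4 of them lower.

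Genes with copies were lower beyond the ribosome too. A copy was counted where another gene's transcript matched at least 80% of a gene's coding or full sequence at 95% identity or more. Genes without a copy had a median log2 difference of 0.01 (8184 tested), those whose closest copy had 95 to 99% identity -0.53 (438) and those with 99% identity or more -2.33 (412 tested, 59 higher and 313 lower). Without the ribosomal protein genes the median of the last class was -1.72 (352 tested, 59 higher and 253 lower), 102 of its genes lay below -4, and its genes took 7.97% of UMIs and 3.75% of long reads. With the ribosomal protein genes included, the class took 33.0% of UMIs and 4.94% of long reads, and 154 of its genes (37.4%, against 4.36% of all genes) lay below -4. Gapdh, the glycolytic enzyme, has 70 copies and had 1535 ± 109 CPM in short and 42.0 ± 20.4 CPM in long reads (SD, n = 6). Gapdh and the pairs in this paragraph and the next were chosen after their values were seen. Some copies held more long reads than the gene itself. Rpl9 had 4272 ± 246 CPM in short and 67.3 ± 13.4 CPM in long reads, while its pseudogene Rpl9-ps6 had 48.7 ± 16.3 and 2918 ± 542 CPM. For Rplp2 and Wdr89, a gene with a retained copy of Rplp2, the values were 5298 and 310 CPM in short and 173 and 2091 CPM in long reads. Hspa8, a constitutive chaperone, had 1761 CPM in short and 335 CPM in long reads, and its copy Gm15459, with 0.418 CPM in short reads, had as many in long reads (335 CPM).

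These pairs are nearly identical in their coding sequence, which the following windows of 30 bases show. They come from Gencode M21 transcripts on GRCm38, run 5′ to 3′, and carry capitals where gene and copy differ. Rpl9 (chr5:65388364-65391444, minus strand) and Rpl9-ps6 (chr19:32465865-32466578, minus strand) differ at 1 of 576 coding bases.
Rpl9: tcacgctgggcttccGatacaagatgcggt
Rpl9-ps6: tcacgctgggcttccAatacaagatgcggt
Rplp2 (chr7:141447370-141451585, plus strand) and Wdr89 (chr12:75630596-75669537, minus strand) differ at 2 of 345 bases, 1 of which lies in the window.
Rplp2: tcaagaaaatactagAcagcgtgggcatcg
Wdr89: tcaagaaaatactagGcagcgtgggcatcg
Hspa8 (chr9:40800984-40810087, plus strand) and Gm15459 (chr5:5781615-5783555, minus strand) differ at 5 of 1938 bases.
Hspa8: gggtaaccgcaccacGccaagctatgttgc
Gm15459: gggtaaccgcaccacAccaagctatgttgc

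Most of the lowest genes stayed low when their copies were added. Of 386 genes with a copy and at least 100 CPM in short reads, 101 were below 1/16 of their short-read CPM in long reads. The 79 ribosomal protein genes among the 386 held 52 of these and had a median log2 ratio of CPM of -4.73, and the other 307 held 49 and had a median of -0.44. With the CPM of all their copies added in both methods, 81 of these 101 were still below 1/16, and with genes that share exons with a copy added too, 71 were. For Rpl9 the sum with its copies was 4324 CPM in short and 2985 CPM in long reads. For Ppia, a prolyl isomerase with 15 copies, it was 4975 CPM in short and 29.9 CPM in long reads. Where the other reads were counted was not tested.

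Other genes that were low in long reads had their exons inside those of another gene of the deposited annotation. The 104 genes with all exonic bases shared on either strand took 1.29% of UMIs and 0.000809% of long reads. The 27 of them that were tested passed the filter on low counts through their short reads, so their lower level in long reads (median log2 difference -10.53) is a description. Genes that share 50% or more had a median of -1.32 and those that share none -0.07. B2m, the light chain of MHC class I (chr2:122147686-122153083, plus strand), had 2714, 3027, 2037, 2388, 2716 and 2858 CPM in short reads and no read in any long-read library of the first or second run, at least 1589-fold more. Patl2, an RNA-binding protein gene on the opposite strand, had 0 to 0.839 CPM in short reads and 2489, 2068, 1891, 1234, 1745 and 1634 CPM in long reads (log2 difference 12.72, SE 0.32). Patl2 passed the filter on low counts through its long reads, so this difference is a description. All exonic bases of B2m lie in Patl2 exons that TALON added. Igkc, the constant region of κ light chains (chr6:70726435-70726966), lies in the same way in the lncRNA Gm30211 on its own strand. It had 4652, 35099.7, 7.203, 6275, 20.9 and 814 CPM in short reads and no long read, at least 5939-fold more, a bound that mouse 2 carries and that was at least 1781-fold without it. Gm30211 had 1.43, 10.0, 0, 1.44, 0 and 0 CPM in short reads and 1809.5, 17948, 30.3, 985, 182 and 88.2 CPM in long reads. The order of the mice in Igkc (mouse 2 highest, then 4, 1, 6, 5 and 3) was close to that in Gm30211 (2, 1, 4, 5, 6 and 3).

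The partners of some other such genes held fewer reads than the genes had in short reads. The partners named here were chosen after their values were seen. Srsf2, a splicing factor (chr11:116849901-116853094), had 445 to 672 CPM in short reads and no long read, at least 320-fold more, while Mettl23 on the opposite strand had 82.1 ± 7.26 and 95.001 ± 23.3 CPM (SD, n = 6). Lyl1 lies with all its exonic bases in Nfix, which had 21.5 ± 3.31 and 51.7 ± 17.6 CPM. For Ndufa13 the partner Yjefn3 had only 2.29 CPM in long reads. Other partners held as much or more. The pseudogenes Rps6-ps4 and Gm11478 had 166 and 144 CPM in short reads and no long read, and their partners 2600014E21Rik and Vmp1 had 186 and 150.4 CPM in long reads. Rpl35, a protein of the large ribosomal subunit (chr2:39001580-39005624, minus strand) with 66.2% of its exonic bases shared, had 2803 to 6433 CPM in short and 43.9 to 111 CPM in long reads (-6.51, SE 0.23). Genes that rose most, by the rule in the methods, included Patl2, Raver1, Gm30211, Slc39a7, Gm38056, Dph1, Agrp, Gm15459, Fam221b, Gm26917 and Med12, at log2 differences of 7.42 to 12.72. Patl2, Gm30211, Gm15459 and Gm38056 had means of a few CPM or less in short reads. They passed the filter on low counts through their long reads, so their differences are a description. Apart from Gm26917, the short-read levels of the other genes named here are not given, and their differences are likewise a description.

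Many low genes lay side by side. Of 8727 genes with at least 5 CPM in short reads, 403 were below 1/16 of that in long reads, 201 of them with a copy and 81 with 50% or more shared exonic bases, 16 with both. The other 137 had neither, and 84 of these stood next to another gene below 1/16. In all, 90 genes formed 17 stretches of 3 to 12 consecutive genes, 66 of them with neither. The genes of the stretches that are named here were chosen after their values were seen, apart from Hhex, Kif11, Jund and Ppp1ca. The longest held 12 genes on chr19:4035407-4233634, among them Gstp1, Gstp3, Cdk2ap2, Tmem134, Coro1b, Ptprcap, Rps6kb2, Tbc1d10c, Ppp1ca, Rad9a and Pold4, and 9 of the 12 had neither a copy nor 50% shared bases. Together the 12 had 1483 CPM in short and 3.01 CPM in long reads (90017 UMIs and 6 reads, and 64 reads in the second run). Ppp1ca, the catalytic subunit of protein phosphatase 1, had 655, 639, 467, 479, 582 and 498 CPM in short reads and no first-run long read. Its neighbour Ndufv1, outside the stretch, had 125 ± 8.62 CPM in short and 288 ± 24.02 CPM in long reads (SD, n = 6). A stretch of 10 genes on chr16:18052860-18479073, with Ranbp1, Dgcr8 and Txnrd2, had 1125 CPM in short and 2.05 CPM in long reads. Hhex and Kif11, a mitotic motor, lie together in a stretch on chr19:37207543-37440731. Jund, an AP-1 factor with 50.6 to 345 CPM in short and 0 to 3.03 CPM in long reads, lies in one on chr8:70698949-70839720, and Mat2a in one of 7 genes on chr6:72318678-72439558.

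**Figure D5:**
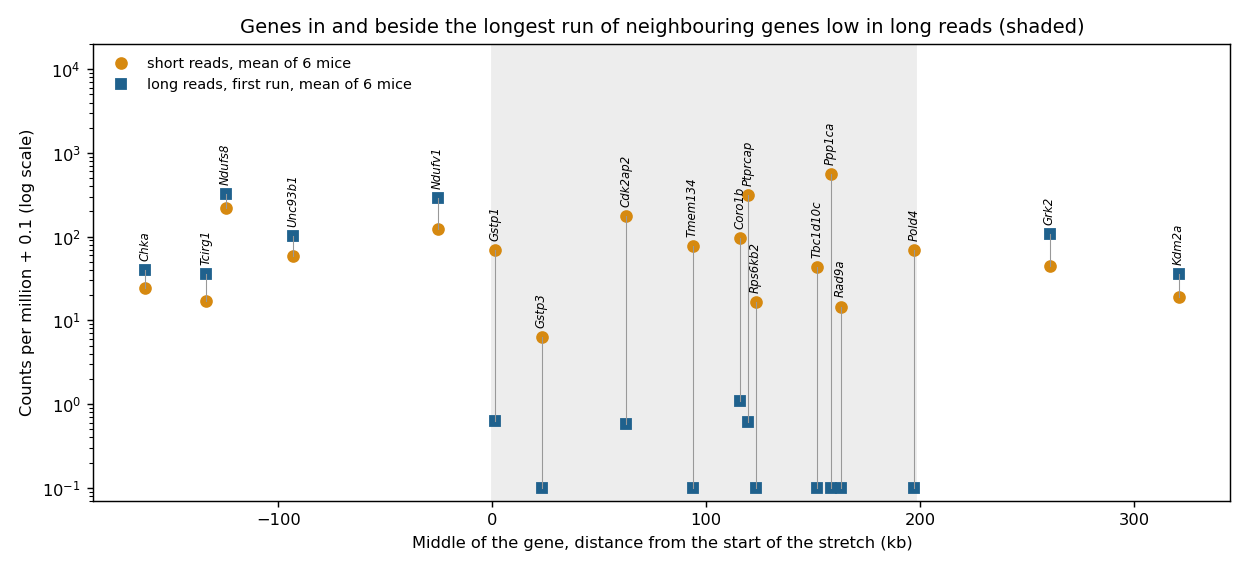
CPM + 0.1 (log scale) of genes with at least 5 CPM in short reads in and beside the stretch of 12 genes (shaded), by distance from its start in kb, with 1 gene of the stretch not shown, as means of 6 mice in short (orange circles) and first-run long reads (blue squares). Inside the stretch the long-read values lie at or near 0, and on both sides they lie above the short-read values.

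The deposited annotation also holds 43 TALON gene models on 28 sequences outside the chromosomes. In some of their transcripts, all internal exons and the introns beside them had the lengths of those in a gene on a chromosome. This held for 7 genes, namely Atp5a1, Coro1b, Mat2a, Men1, Pcmt1, Ppp1ca and Vezf1. These transcripts had 2 (Men1) to 10 (Atp5a1) internal exons, which need not be all those of the gene. Coro1b and Ppp1ca were matched by the same model. All 7 were below 1/16 in long reads and 6 of them lie in the stretches. Atp5a1, the α subunit of ATP synthase, had 522 to 636 CPM in short reads and long reads in mouse 6 alone (8.54 CPM). The 43 models held 645 first-run reads in all, and the models of these 7 genes held between 0 and 8 each.

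Noncoding RNAs were mostly lower in long reads. Of 199 lncRNAs tested, 125 were lower and 24 higher (against 30.1% and 27% of all genes), and 79 lower and 43 higher with library size alone (median -0.50). The median log2 difference was -1.26, against -0.02 for 8648 protein-coding genes. Among biotypes with more than a few tested genes, processed pseudogenes were lowest (100 of 1310 matched were tested, 77 lower, median -5.78). Those with few or no long reads passed the filter on low counts through their short reads, so their lower level is a description. Malat1, a nuclear RNA and the most abundant gene of the short reads, had 6242 to 16333 CPM in short and 5117 to 8625 CPM in long reads (-1.35, SE 0.16). Snhg6 and Dleu2, hosts of small RNAs, fell by 1.85 and 2.12 on the log2 scale. Gm26917, an annotated lncRNA on chr17:39843013-39846341, was the most abundant gene of the long reads, with 39119, 34438, 46467, 92373, 46414 and 42281 CPM, and had 65.0 to 122 CPM in short reads (8.40, SE 0.25). Mouse 4 had the highest value, and the others were close together. Without Gm26917 and the mitochondrially encoded genes, 5157 genes differed.

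Mitochondrially encoded genes moved in both directions. They took 1.10 ± 0.342% of UMIs and 2.51 ± 0.484% of long reads (SD, n = 6), higher in long reads in 6 of 6 mice (exact paired permutation test, two-sided, p = 0.03125, the smallest that 6 pairs allow). The difference of 1.42 percentage points was 0.84 in the second run and 0.94 with both runs summed. Of 14 tested, 4 were higher and 7 lower (against 27% and 30.1% of all genes), with a median of -0.78 (-0.02 with library size alone). In the second run 2 were higher and 10 lower. mt-Rnr2, the large ribosomal RNA, had 125 to 438 CPM in short and 10758 to 21079 CPM in long reads (log2 difference 5.00, SE 0.20). Its mean of 14724 CPM in long reads was about as large as the difference of 1.42 points in the mitochondrial share. The share without mt-Rnr2 was not computed. mt-Atp8 had 23.7 to 75.8 CPM in short reads and no first-run long read, and mt-Atp6, whose reading frame overlaps it, fell from 295 ± 186 to 22.5 ± 14.1 CPM (-4.40). The authors kept cells with at most 5% mitochondrial counts, a limit stated for the short-read counts. Its part in the difference was not tested.

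Immediate early genes, which cells switch on quickly after a stimulus, differed widely between mice in both methods. Zfp36, a protein that destabilises mRNA, had 36.8, 18.8, 111, 153, 82.9 and 52.6 CPM in short and 475, 341, 2548, 1628, 701 and 660.2 CPM in long reads (2.99, SE 0.15). Egr1 had 13.9, 8.02, 79.95, 99.3, 62.6 and 52.0 CPM in short and 51.2, 17.04, 1214, 1360.0, 343 and 319 CPM in long reads (2.23, SE 0.20). Both were lowest in mice 1 and 2 and highest in mice 3 and 4, whichever method was used. Of 18 genes of this list 5 were higher and 4 lower, Jund and Btg2 among the latter, with a median of 0.09 (against 27% and 30.1% of all genes). With library size alone 14 were higher and 2 lower (median 0.86, against 58.6% and 12.5% of all genes).

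The remaining lists were small or mixed. Of 17 tested MHC genes 5 were higher and 7 lower (against 27% and 30.1% of all genes), with a median log2 difference of -0.20. This median turned positive with library size alone (0.56). Of 6 tested immunoglobulin genes 5 were lower (median -2.14). Jchain, which joins IgM and IgA chains, was the 1 that did not pass the test (0.21, edgeR adjusted p = 0.61). The 4 tested markers of B and plasma cells held 2 lower genes and the 4 of macrophages and dendritic cells held 3, none higher. With library size alone the former held 2 higher and 2 lower genes and the latter 1 higher and none lower, with a median that turned from -0.61 to 0.11, and DESeq2 called 1 gene of the latter lower. Of 19 tested genes that the study itself names, a list chosen on these samples, 6 were higher and 8 lower (against 27% and 30.1% of all genes). Their median was -0.01, and 0.75 with library size alone. Of 19 tested members of a list of known long noncoding RNAs 3 were higher and 12 lower (against the same shares). The only histone gene tested was lower (Hist1h2ap, -4.56).

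Over whole libraries the long reads came from longer genes. The transcript length averaged over counts was 1315 ± 41.7 nt in short and 1874 ± 103 nt in long reads, and the exon number 6.09 ± 0.112 and 7.29 ± 0.205 (SD, n = 6). Without mitochondrially encoded and ribosomal protein genes the difference fell from 559 to 317 nt and from 1.19 to 0.78 exons, and was still higher in long reads (exact paired permutation test, p = 0.03125 for both). The 10 most abundant genes took 9.002 ± 1.08% of UMIs and 12.2 ± 1.56% of long reads. Each of the 4 measures, the mitochondrial share included, was higher in long reads in 6 of 6 mice (exact paired permutation test, two-sided, p = 0.03125 and adjusted p = 0.03125 over the 4). In long reads mt-Rnr2 alone had a mean of 14724 CPM, about as large as the difference in the mitochondrial share. Gm26917 alone had 50182 CPM, more than the difference of 3.15 points in the share of the 10 most abundant genes. Neither share was computed without its gene. At the depth of the shallower library of a mouse, short reads of mouse 1 were expected to count 10191 genes against 9977 in its long reads, and the difference, short minus long, ran from -143 to 225 genes over the 6 mice. In the second run it ran from 389 to 1054 genes. Over all first-run libraries, 12823 genes were counted by both methods, 4322 by short reads alone and 4 by long reads alone. Genes absent from the short-read table could not enter, which limits the count by long reads alone and the differences at equal depth. Of the 4322, 93 had at least 20 CPM in short reads. Across the tested genes, the levels of a mouse by both methods had a Spearman correlation of 0.65 to 0.73 and a Pearson correlation of 0.56 to 0.65 on log2(CPM + 1), a description across genes, which are not replicates. Among genes with neither a copy nor shared exonic bases the mean Spearman correlation was 0.74. Between mice it was 0.95 to 0.99 in short and 0.87 to 0.93 in long reads.

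Age was compared within each method and as a change of the method difference. With edgeR, no gene differed in the long minus short difference between 8 and 72 weeks (0 of 9034 tested, 0.0%, with 271 at an unadjusted p under 0.05 and 0 by DESeq2). No gene differed between ages in short reads (0 of 11994, 0.0%, with 359 at an unadjusted p under 0.05 and 11 by DESeq2) or in long reads (0 of 5140, 0.0%, with 161 at an unadjusted p under 0.05 and 0 by DESeq2). Nupr1, a stress-response cofactor, had 2.11, 3.00 and 2.39 CPM in young and 11.1, 24.2 and 30.5 CPM in aged mice by short reads. By long reads it had no read in young mice and 13.6, 14.9 and 17.1 CPM in aged mice. The ages did not overlap in either method, the log2 difference in short reads was 3.05 (SE 0.40, edgeR adjusted p = 0.63), and the gene did not pass the filter on low counts in long reads. Sult1a1, a sulphotransferase, had 0.928, 1.92 and 0.702 CPM in young and 9.28, 24.2 and 6.16 CPM in aged mice by short reads, and 0, 3.03 and 0 against 20.4, 48.3 and 11.4 CPM by long reads. For Kit the log2 difference, aged minus young, was 0.15 (SE 0.17) in short and 0.13 (SE 0.23) in long reads, and neither passed the test.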

How the data were processed

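Short-read gene counts per cell and long-read gene counts per library were used. Per the labels and the study's methods, the authors made the deposited short-read counts of UMIs with Cell Ranger 3.0.2 and Seurat 3 on mm10, and left out cells below 1000 genes or above 5% mitochondrial counts. They aligned PacBio circular consensus reads with minimap2 and counted them with HTSeq over a TALON annotation built on Gencode. They also assigned reads to the short-read cell barcodes, and the deposited counts hold more reads than were assigned. HTSeq settings are not given in the sources used here.

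Counts were summed over the cells of a mouse and paired with its first long-read run by gene name. Of 17757 short-read names, 562 were not in the annotation (1.33% of UMIs) and 28 were carried by more than 1 gene (0.131%). Matched genes held 98.5 to 98.6% of UMIs and 97.8 to 98.0% of long reads on genes. Genes were filtered and tested with edgeR 4.0.16 (quasi-likelihood, TMM, mouse as block), with DESeq2 1.42.0 as an alternative. Mouse numbers pair the libraries because both come from the cDNA of 1 mouse, and every pair correlated above 0.1. The unpaired fit of age had 3 mice per group, each a separate mouse. Copies were found with BLAST 2.17.0. Whole-library measures used an exact paired permutation test. Floors and intervals cover counting error only. The steps were tested on simulated data.

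Named genes were the 12 highest and 12 lowest log2 differences among called genes with at least 50 CPM in a method and all 6 mice on 1 side, up to 2 highest and 2 lowest of each list, the genes the study names and the 5 most abundant of each method. Members, lists and tests were chosen with earlier results of these data known. Some results are not reported here.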

Additional observations from a re-analysis of the deposited data

Results flagged for a closer look

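Of 33 groups of 6 mice checked for 1 value far from the others, 4 had one, where chance alone gives about 1 in 20. In mouse 4 the 10 most abundant genes took 15.3% of long reads, against 11.3 to 11.8% in the other 5 mice. In the same library Gm26917 stood at 92373 CPM, against 34438 to 46467 CPM, and the Pearson correlation between the methods was 0.564, against 0.623 to 0.648. Mouse 4 also had the deepest short-read library and the shallowest long-read library, and the part of depth in these values was not tested. The count-weighted exon number of mouse 1 was 0.876 exons higher in long than in short reads, against 1.22 to 1.34 exons in the other mice.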

How the results depend on the processing

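Without the replicate block 4912 genes differed between methods in place of 5165. With library size alone 5291 were higher and 1131 lower. Counts were smaller with a mean of 10 counts required in both methods (3167, with 1573 higher, 1594 lower and 1384 at an absolute log2 difference of at least 1), without genes sharing exonic bases (2927, with 1381, 1546 and 1633) and without genes that have a copy or shared bases (2456, with 1188, 1268 and 1252), where fewer genes were tested. The last setting, and every use of genes with neither, was chosen after seeing the data. Of the 9034 tested genes, 2664 changed sign with library size alone, 753 of them called with TMM. Among the genes checked by name, those that changed sign and passed the test under either scaling were Apoe (0.75), Cd79b (0.52), Flt3 (0.24), H2-Aa (0.0618), H2-Ab1 (0.0742), H2-Eb1 (0.14), Itga2b (0.0733), Meis1 (0.77) and Sptbn1 (0.17). By the same measure others changed sign in the second run (Flt3 0.38, Itga2b 0.52, Rpl13a -0.28), with both runs summed (Flt3 0.26, Itga2b 0.37) or in 8-week mice only (H2-Eb1 0.0545). The cause was not tested. In the second run the numbers of mice 3 to 6 did not pair with the short reads, so a blocked fit of that run pairs by label only. The same holds for paired tests on that run and on both runs summed, where a sum may join reads of different mice.

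No paired analysis was possible for age because young and aged mice share no number. Genes whose method difference depended on age numbered 1 with no filter and 0 to 2 without 1 mouse (2 without mouse 1). Age differences in short reads numbered 11 by DESeq2 and 0 to 1 without 1 mouse (1 without mouse 2), and in long reads 28 with no filter and 0 to 2 without 1 mouse (1 without mouse 4, 2 without mouse 6).

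Without mitochondrially encoded and ribosomal protein genes the differences in length and exon number were 317 nt and 0.781 exons, and the exon difference was 0.778 with transcripts TALON marked as known and 1.84 with the longest transcript. The mitochondrial difference was 0.837 points in the second run. Without 1 mouse the differences of the whole-library measures were 530 to 584 nt, 1.16 to 1.26 exons, 1.35 to 1.501 percentage points of mitochondrial counts and 2.49 to 3.64 points of the 10 most abundant genes, where the exact test on 5 pairs cannot go below p = 0.0625. For the 10 most abundant genes the difference was 2.18 points in the second run and 2.31 with both runs summed, neither past the test, which paired the mice by label. At equal depth short reads counted 64 genes more on average in the first run (31.8 to 105.4 without 1 mouse), 784 in the second and 787 with both summed. These counts cover matched genes only, so genes absent from the short-read table could not enter. The mean Spearman correlation was 0.851 over all matched genes and 0.744 over genes with neither copy nor shared bases. The Pearson correlation was 0.525 with a pseudocount of 0.1 CPM, 0.701 with 10 CPM, 0.852 over all matched genes and 0.718 over genes with neither. The gap of 2.01 between the longest and shortest transcripts became 6.05 with the longest transcript of a gene, 1.15 with transcripts TALON marked as known and 1.43 over genes with neither. That of 1.07 between over 20 exons and 1 exon became 0.58, 0.56 and 0.49, and 1.54 in the second run. The gap between lncRNAs and protein-coding genes became -1.58 in the second run. Long-read depth limits statements on genes under a few CPM.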
